A study of Homo sapiens with 2 samples.

Results

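Tight junctions are the belts of contact near the apical edge of epithelial cells that close the space between neighbours, and in the liver they separate the bile canaliculus from the blood side of the hepatocyte. Claudins are tetraspan membrane proteins whose extracellular loops pair across the gap and set which ions and solutes pass. Occludin, a tetraspan protein of another family, runs along the claudin strands, and ZO-1, the product of TJP1, ties claudins and occludin to the actin cytoskeleton.

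The 9 genes described here are the claudin genes CLDN1, CLDN2, CLDN3, CLDN4, CLDN6, CLDN7 and CLDN12, the occludin gene OCLN and TJP1, of 24991 genes with a symbol of their own in the table. They were taken by symbol, and each had 1 row. They were picked as barrier genes with the contrast between these libraries already known, so their differences are a description and carry no test. RNA came from PLC/PRF/5, an established human hepatocellular carcinoma line, kept under hypoxia. The control culture carried an empty vector, and the other culture overexpressed NFX1, a zinc-finger transcription factor. Both groups had 1 library, so every difference compares 2 libraries and not the conditions, and the labels name neither the vector's promoter nor the oxygen level.

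The values are FPKM, fragments scaled by transcript length and library size, which allows genes to be compared within a library. Depth was about 26.3 M fragments in the vector library and 29.9 M in the NFX1 library. These are rough estimates from single fragments on only 6 olfactory receptor genes in the vector library and 7 in the NFX1 library. NFX1 itself had 4.21 FPKM with the vector and 56.0 FPKM with NFX1. Each of the 10 listed hepatocyte markers reached 1 FPKM in at least 1 library. They were led by SERPINA1 (5935 and 6807 FPKM) and transferrin, TF (879 and 938 FPKM). Others were low: albumin, ALB, had only 0.776 and 1.06 FPKM, TTR 1.38 and 1.96 FPKM and FGB 1.70 and 1.64 FPKM. Of the bile duct markers, EPCAM had 31.6 and 29.3 FPKM and ONECUT1 12.4 and 14.2 FPKM, while KRT19 was under 1 FPKM in both. The fibroblast list summed to 1.39 and 1.36 FPKM and the blood cell list to 1.00 and 1.14 FPKM, with no gene at 1 FPKM. Of the endothelial list only ESAM, at 3.97 and 3.43 FPKM, passed 1 FPKM, and CDH5 and KDR were at 0 in both libraries.

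CLDN4 and CLDN3 were the only members with higher values in the NFX1 library, and CLDN1 was by far the most abundant. The 250 bases ahead of the annotated start of each are shown, so that the setting of the higher pair can be read beside that of CLDN1. They are RefSeq sequences of GRCh38.p14, another build than that of the table, and all 9 members matched the RefSeq table. Capitals mark any of 5 letter patterns found on either strand. They include the TATA box TATAAA, the GC box GGGCGG bound by SP1-type factors, and the E-box CAGGTG bound by Snail and ZEB repressors. Another is TGANTCA, with N any base, a loose pattern for the AP-1 site, which has C or G at N. The last is ACGTG, a form of the hypoxia response core. The CLDN4 stretch is chr7:73830746-73830995 on the plus strand, that of CLDN3 is chr7:73770271-73770520 on the minus strand, and that of CLDN1 is chr3:190322447-190322696 on the minus strand.
CLDN4: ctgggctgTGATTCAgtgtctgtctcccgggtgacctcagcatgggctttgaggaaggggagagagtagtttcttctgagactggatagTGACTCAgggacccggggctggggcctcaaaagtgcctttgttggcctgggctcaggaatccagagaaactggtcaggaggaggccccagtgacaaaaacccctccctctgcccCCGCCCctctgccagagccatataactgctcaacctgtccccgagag
CLDN3: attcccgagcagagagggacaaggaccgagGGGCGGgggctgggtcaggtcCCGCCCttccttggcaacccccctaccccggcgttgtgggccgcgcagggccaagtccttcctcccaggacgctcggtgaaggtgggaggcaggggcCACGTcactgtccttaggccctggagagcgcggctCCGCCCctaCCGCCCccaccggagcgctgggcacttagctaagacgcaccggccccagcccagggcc
CLDN1: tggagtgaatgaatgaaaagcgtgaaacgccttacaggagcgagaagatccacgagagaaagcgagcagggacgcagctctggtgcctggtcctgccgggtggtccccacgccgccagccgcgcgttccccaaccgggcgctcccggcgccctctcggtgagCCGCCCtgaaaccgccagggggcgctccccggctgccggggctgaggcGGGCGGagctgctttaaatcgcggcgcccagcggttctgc

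The CLDN4 stretch matched the loose AP-1 pattern at 242 bases (TGATTCA) and 161 bases (TGACTCA) ahead of the start. Only the match at 161 bases has the C or G of the AP-1 site. The stretch also held 1 GC box at 47 bases. A match to the loose AP-1 pattern was found in 6.57% of 35116 promoter windows of this length, and a GC box in 42.6%. The CLDN3 stretch held 4 GC boxes and 1 hypoxia response core of the form ACGTG, at 102 bases ahead of the start, letters found in 18.5% of windows. The CLDN1 stretch held 2 GC boxes. The other form of the hypoxia response core, GCGTG, was not searched, and the CLDN1 stretch holds it in small letters. None of these 3 stretches held the E-box, found in 17.5% of windows, or TATAAA, found in 10.7%. Of the other members, the E-box was in both windows of OCLN and 1 of 4 windows of TJP1. It was also in 1 of 2 windows of CLDN7, which held 4 copies. The loose AP-1 pattern also matched a window of CLDN2, as TGATTCA at 60 bases ahead of the start. A hypoxia response core was also in a window of OCLN, at 86 bases. GC boxes were also in windows of CLDN6, CLDN7, OCLN and TJP1. GC content was 58.8% for CLDN4, 71.6% for CLDN3 and 68.8% for CLDN1, against a median of 58.0% over all windows. These matches describe letters and say nothing of binding.

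Levels of the members spanned 3 ranges. CLDN1, a sealing claudin of hepatocytes and skin, had 265 FPKM with the vector and 248 FPKM with NFX1, above 96.7% and 96.0% of the 11182 genes with at least 1 FPKM in a library. CLDN12, CLDN3, TJP1, CLDN4 and OCLN lay between 4.58 and 12.5 FPKM. CLDN6, CLDN7 and CLDN2 lay under 1 FPKM in both libraries. The limit of 1 FPKM was therefore passed by 6 of the 9 members, and those 6 passed it in both libraries.

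In the vector library the order from the highest was CLDN1, CLDN12, CLDN3, TJP1, CLDN4, OCLN, CLDN6, CLDN7 and CLDN2. In the NFX1 library CLDN3 and CLDN4 came next after CLDN1, ahead of CLDN12 and TJP1. In the vector library TJP1 (7.24 FPKM) and CLDN4 (7.14 FPKM) were close, and so were CLDN12 (10.5 FPKM) and CLDN3 (9.81 FPKM). With 1 library per group there is no spread between cultures against which neighbours in this order could be told apart.

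**Figure D1:**
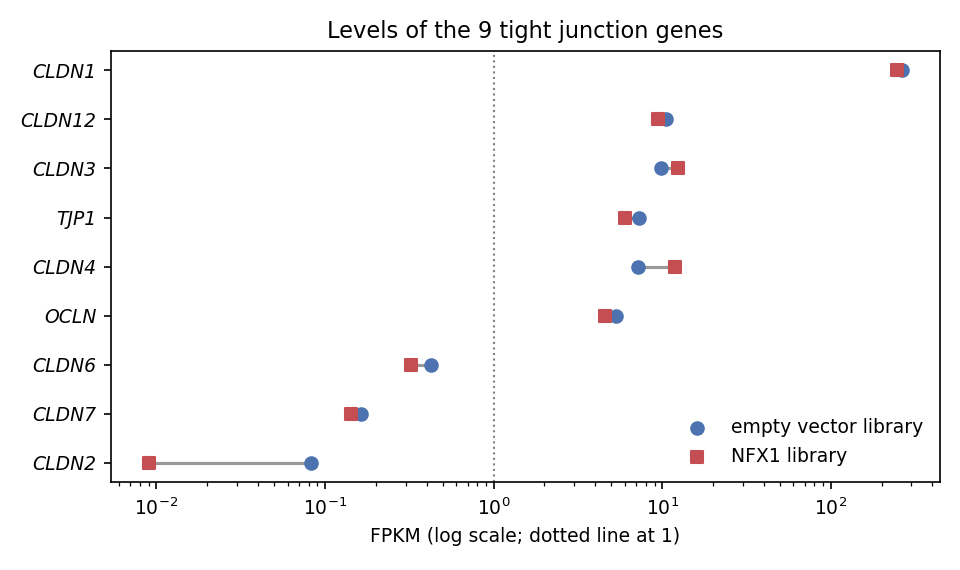
FPKM (log scale) of the 9 members in the empty vector library (circles) and the NFX1 library (squares), with a dotted line at 1 FPKM. CLDN1 stands alone above 200 FPKM, 5 members lie between 4 and 13 FPKM, and CLDN6, CLDN7 and CLDN2 lie under 1 FPKM.

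CLDN4 encodes a claudin of many simple epithelia and, with CLDN3, is a receptor for the enterotoxin of Clostridium perfringens. It had 7.14 FPKM with the vector and 11.9 FPKM with NFX1. The FPKM ratio was 1.67, with a 95% exact (Clopper-Pearson) interval of 1.46 to 1.90 from an estimated 344 and 658 fragments. Such intervals cover counting error only and take no account of differences between cultures. In bulk RNA, more transcripts per cell and more cells with the transcript cannot be told apart. On the scale used across genes, log2 of FPKM + 1, the change from vector to NFX1 was 0.67, above that of 99.7% of the 11182 genes. CLDN4 was the only member at least 1.5-fold higher on that scale, a limit that 0.420% of all genes passed. Its change was under that limit with a pseudocount of 5 (0.48) and with the libraries scaled to equal FPKM totals (0.54). The contrast was known when the genes were picked, so that share supports nothing.

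CLDN3, a sealing claudin of liver and gut epithelia, had 9.81 FPKM with the vector and 12.5 FPKM with NFX1. Its FPKM ratio was 1.27 (95% counting interval 1.10 to 1.47, 328 and 479 estimated fragments), and its change on the log2(FPKM + 1) scale was 0.32, above that of 93.5% of genes. It stayed just under a limit of 25% higher on that scale, which 6.12% of all genes passed. The level of CLDN4 relative to that of CLDN3 was 0.728 in the vector library and 0.956 in the NFX1 library.

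The other members with at least 1 FPKM had lower values in the NFX1 library, each by less than 20% on the FPKM + 1 scale. TJP1, the scaffold, had 7.24 and 6.03 FPKM, a ratio of 0.832 (95% counting interval 0.769 to 0.901) and a log2 change of -0.23. OCLN had 5.30 and 4.58 FPKM, a ratio of 0.864 (0.780 to 0.958) and a log2 change of -0.18. Its pseudogene OCLNP1, listed as LOC647859, had 0.0898 and 0 FPKM, and how the authors' counting split reads between copies is not known. CLDN12, a claudin reported to lack the usual C-terminal motif for binding ZO proteins, had 10.5 and 9.46 FPKM, a ratio of 0.899 whose interval of 0.806 to 1.00 reached just past 1, and a log2 change of -0.14. The length behind that interval was the median of 2 transcripts. CLDN1 had a ratio of 0.938 (0.922 to 0.955) and a log2 change of -0.09. The narrow interval of CLDN1 rests on an estimated 24197 and 26081 fragments. Taking the 6 members at 1 FPKM or more, 2 had higher and 4 lower values, where 52.0% of all genes were higher and 48.0% lower.

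**Figure D2:**
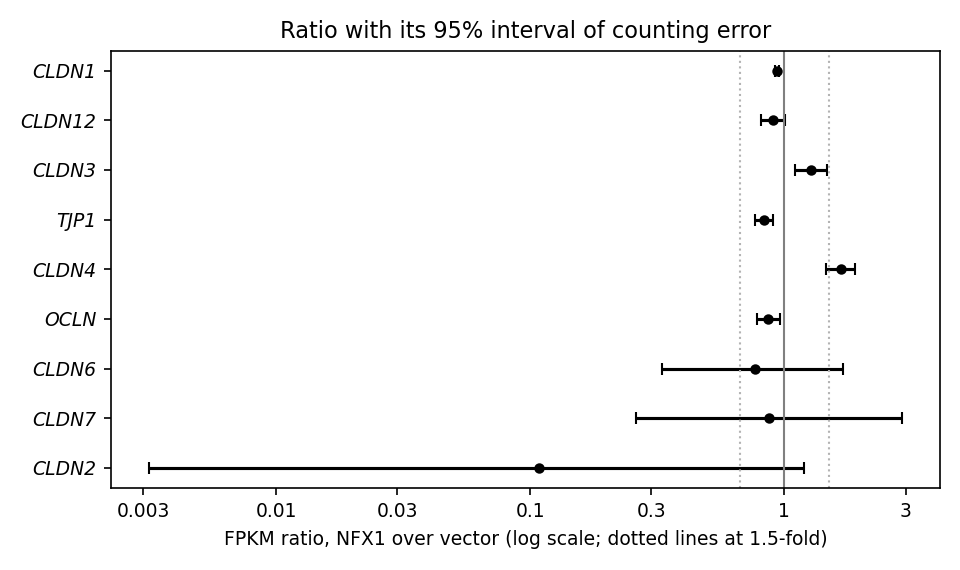
FPKM ratio of NFX1 over vector (log scale) for the 9 members, with bars for the 95% exact interval of counting error and dotted lines at 1.5-fold in each direction. The intervals of CLDN4 and CLDN3 lie above 1, those of CLDN1, TJP1 and OCLN lie below 1, and those of CLDN12, CLDN6, CLDN7 and CLDN2 include 1. The interval of CLDN2 rests on an estimated 6 and 1 fragments and depends on the transcript length used.

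The members under 1 FPKM rested on few fragments. CLDN2, which forms a channel for cations and water in leaky epithelia, had 0.0826 and 0.00898 FPKM. Divided by the worth of 1 fragment in each library, these values stood at 8 to 1, and the transcript length used here gave an estimated 6 and 1 fragments. The counting interval of the ratio, 0.00315 to 1.20, was computed from the 6 and 1 fragments and included 1. No interval was computed at 8 to 1, and a higher count with the vector would narrow it. Whether the interval of CLDN2 includes 1 therefore depends on the transcript length used. CLDN6, an oncofetal claudin, had 0.424 and 0.325 FPKM from about 15 and 13 fragments, and the interval of its ratio was 0.330 to 1.70. CLDN7, a claudin found along the lateral membrane of many epithelia, had 0.163 and 0.143 FPKM, an estimated 7 fragments in each library. Its row shares a locus with ELP5, a subunit of the Elongator complex, at 93.2 and 119 FPKM, so its low values are uncertain. The row of CLDN2 shares its locus with RIPPLY1, listed at 0 in both libraries.

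Base composition moved with the direction of the changes. With genes split into 5 equal groups by transcript GC content, the median change was -0.11 in the lowest group and 0.20 in the highest. CLDN3 (69.2% GC) and CLDN4 (60.5%) belong to the highest group. CLDN1 (41.5%) and OCLN (39.9%) belong to the lowest group, and CLDN12 (44.6%) and TJP1 (44.8%) to the next. A trend on GC content, transcript length and expression was fitted on genes within 2-fold and took 42.0% of the variance of their changes. It was then subtracted for the 10965 genes with a matched transcript. With that trend subtracted, the log2 change was 0.49 for CLDN4 and 0.09 for CLDN3. The remaining changes became -0.04 for CLDN1, -0.05 for CLDN12, -0.05 for OCLN and -0.09 for TJP1. After this step CLDN4 was still above 99.6% of genes, while CLDN3 was above 77.2%, and no member passed 1.5-fold, which 0.520% of genes did in either direction.

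**Figure D3:**
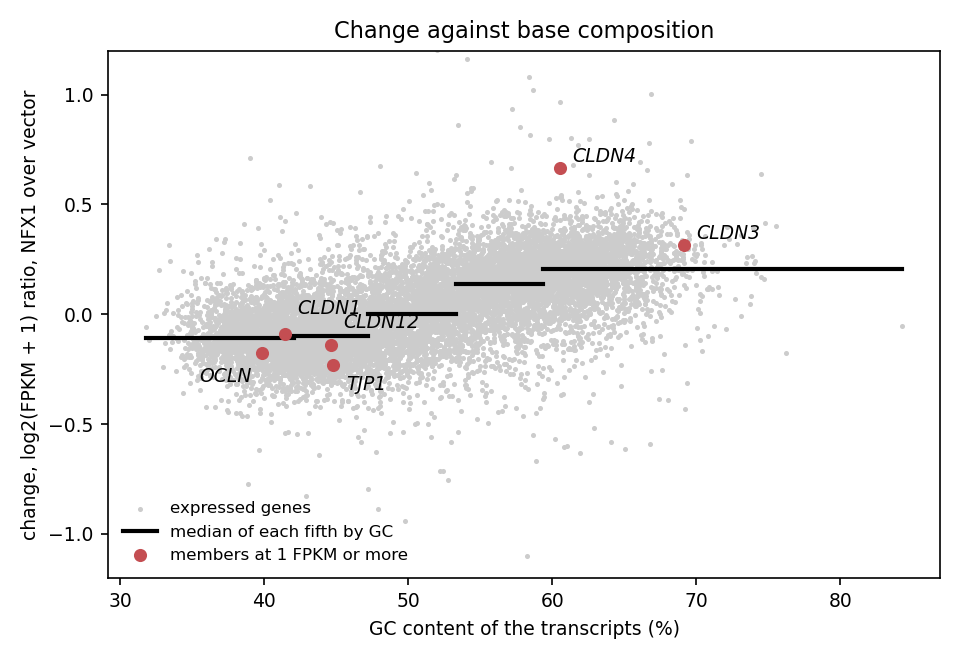
Change on the log2(FPKM + 1) scale, NFX1 over vector, against the GC content of the transcripts for expressed genes (grey), with the median of each of 5 equal groups by GC content (black bars) and the 6 members at 1 FPKM or more (red). 8 genes beyond the plotted range are not shown. CLDN3 and CLDN4 sit in the group of highest GC content, CLDN4 well above its median of 0.20, and the other members lie in the 2 lowest groups.

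CLDN3 and CLDN4 lie close together on chromosome 7 (hg19: CLDN3 from 73183327 to 73184600, CLDN4 from 73245193 to 73247023), with 60592 bp between them. In both, the annotated locus is as long as the transcript, which leaves no room for an intron. Within 100000 bp of either gene, 6 other genes had at least 1 FPKM in a library, with transcripts of 51.8% to 68.6% GC. All 6 had higher values in the NFX1 library, with a median log2 change of 0.23, where 52.0% of all genes were higher. Without the trend their median was 0.09, VPS37D was at -0.04 and the others stayed above 0, where 50.6% of all genes were higher. Around CLDN6 and CLDN9, genes under 1 FPKM, 9 of 10 such neighbours were higher, with a median log2 change of 0.28, or 0.07 without the trend. Without the trend TNFRSF12A (-0.15), HCFC1R1 (-0.15), IL32 (-0.04) and MMP25-AS1 (-0.28) were below 0 and the others above 0. The neighbours were chosen by position after their values had been seen. Near CLDN3, ABHD11-AS1, just under the limit of 1 FPKM, had 0.960 and 0.358 FPKM. The nearest to CLDN4, WBSCR27, had 2.88 and 4.24 FPKM (log2 change 0.43, or 0.22 without the trend). ABHD11, next to CLDN3, had 8.83 and 10.5 FPKM (log2 change 0.22, or 0.04 without the trend). The CLDN4 change exceeded that of each of the 6 neighbours of this pair, with the trend in place and with it subtracted.

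CLDN1 lies on chromosome 3 (190023490 to 190040235), CLDN12 on chromosome 7 (90032648 to 90045268), OCLN on chromosome 5 (68788119 to 68853931) and TJP1 on chromosome 15 (29991571 to 30261002). CLDN6, on chromosome 16 (3064713 to 3068188), lies 206 bp from CLDN9, its close relative, which had 0.569 and 0.549 FPKM. CLDN16, a claudin of renal magnesium transport and a neighbour of CLDN1 at 48512 bp, had 2.96 and 2.42 FPKM.

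The claudin pool of these cells was mostly CLDN1. Over 23 listed claudins, FPKM summed to 303 in the vector library and 293 in the NFX1 library, and CLDN1 made up 87.3% and 84.8% of the sum. The share of CLDN4 was 2.36% in the vector library and 4.07% in the NFX1 library, and that of CLDN3 was 3.24% and 4.26%. Besides CLDN1, CLDN3, CLDN4 and CLDN12, only CLDN14, CLDN15, CLDN16 and CLDN23 reached 1 FPKM. CLDN15, a cation-channel claudin of the intestine, had 3.09 and 3.02 FPKM, CLDN23 had 1.87 and 1.87 FPKM, and CLDN14 had 1.62 and 1.97 FPKM. CLDN5, the claudin of endothelial cells, had 0.0536 and 0.0233 FPKM. CLDN8, CLDN10, CLDN17, CLDN24 and CLDN25 were listed at 0 in both.

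The wider claudin list adds CLDND1 and CLDND2, 2 claudin-domain genes, and 9 of its 25 genes were measured. Of these 3 were higher and 6 lower, where 52.0% of all genes were higher and 48.0% lower. Their median change was -0.02 against 0.01 over all genes. CLDND1 had 15.8 and 13.6 FPKM.

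The MARVEL and angulin list had 4 measured genes, 2 higher and 2 lower, with a median of -0.04. LSR, the angulin that builds tricellular contacts, had 162 and 180 FPKM (log2 change 0.15, but -0.10 without the trend). Tricellulin, MARVELD2, had 3.56 and 3.56 FPKM, and MARVELD3 had 4.21 and 3.93 FPKM. Of the 5 measured junctional adhesion molecules, 4 were lower, as were 4 without the trend, where 48.0% and 49.4% of all genes were lower. Among the lower genes was CXADR, the coxsackievirus and adenovirus receptor (34.1 and 32.1 FPKM). JAM3 had 1.63 and 1.28 FPKM and ESAM 3.97 and 3.43 FPKM (log2 change -0.17, or -0.30 without the trend). CLMP, a relative of CXADR, was the exception at 3.83 and 4.73 FPKM (log2 change 0.25, or 0.38 without the trend).

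Scaffold and polarity genes were mixed, where 52.0% of all genes were higher and 48.0% lower. Of 15 measured scaffold and plaque genes, 7 were higher and 8 lower, and their median of -0.02 turned to 0.08 among those with at least 5 FPKM. The ZO proteins did not share a direction: beside the lower TJP1, TJP3, which encodes ZO-3, had 2.11 and 2.96 FPKM (log2 change 0.35, or 0.19 without the trend). MAGI1, a multi-PDZ scaffold, had 8.22 and 7.07 FPKM, and TJAP1 24.8 and 30.1 FPKM. The polarity list holds the apical complexes and also the basolateral genes LLGL1, LLGL2, SCRIB and DLG1. Of its 15 measured genes, 7 were higher and 8 lower. Their median of -0.10 turned to 0.23 among those with at least 5 FPKM. Without the trend 6 were higher and 9 lower. LLGL2, a basolateral polarity protein, had 28.6 and 40.1 FPKM (log2 change 0.47, or 0.28 without the trend). PARD6A had 5.57 and 7.64 FPKM (log2 change 0.40, or 0.19 without the trend), and LLGL1 had 10.4 and 13.0 FPKM (0.29, or 0.14). CRB3, the epithelial Crumbs protein, had 53.0 and 63.1 FPKM (0.25, or 0.02 without the trend).

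Of 9 measured adherens junction genes, 6 were lower (median -0.07), and 7 without the trend (median -0.09), where 48.0% of all genes were lower. Among them were E-cadherin, CDH1, at 4.31 and 3.47 FPKM and afadin, listed as MLLT4, at 15.4 and 12.2 FPKM, a change of -0.31. The nectin genes PVRL1 (7.39 and 8.61 FPKM) and PVRL2 (106 and 119 FPKM) were higher, though PVRL2 was at -0.06 without the trend. Of 8 measured desmosome genes, 6 were lower (median -0.12), and 5 without the trend (median -0.03), with desmoplakin, DSP, at 30.5 and 25.7 FPKM and DSC2 at 2.94 and 2.32 FPKM. Plakoglobin, JUP, had 101 and 121 FPKM and PKP3 1.78 and 2.36 FPKM. The 3 measured gap junction genes had a median of -0.25, or -0.14 without the trend. Of these, GJB1, the connexin of hepatocytes, had 114 and 141 FPKM, GJA1 10.2 and 8.42 FPKM and GJC1 7.94 and 6.38 FPKM.

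The measured transcription factors that act on junction genes were rich in GC, at medians of 58.4% for the activators and 58.5% for the repressors. Of 8 measured activators of epithelial identity, 6 were higher (median 0.19), as were 6 without the trend (median 0.02), where 52.0% and 50.6% of all genes were higher. CDX2, an intestinal factor known to activate CLDN2, had 1.29 and 2.13 FPKM (log2 change 0.45, or 0.38 without the trend). ELF3, an epithelial ETS factor, had 157 and 188 FPKM. Of 5 measured repressors, 4 were higher (median 0.12), and 3 without the trend (median 0.02). SNAI1, which encodes Snail, a repressor of claudin and cadherin genes, had 12.4 and 14.1 FPKM (log2 change 0.17, or 0.02 without the trend). TCF3 had 25.6 and 30.7 FPKM, TWIST2 3.16 and 3.53 FPKM and ZEB1 1.11 and 0.945 FPKM.

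Of 11 measured enzymes that cleave or modify claudins and their anchors, 4 were higher and 7 lower (median -0.05). WNK4, a kinase that phosphorylates claudins, had 3.57 and 4.87 FPKM (log2 change 0.36, or 0.22 without the trend), and the protease MMP9 had 1.07 and 1.55 FPKM. The sheddase ADAM17 had 10.1 and 8.27 FPKM and the ubiquitin ligase ITCH 9.54 and 7.74 FPKM. At the canalicular membrane, which tight junctions border, 5 of 6 measured genes were lower (median -0.03), and 4 of 6 without the trend (median -0.05), where 48.0% and 49.4% of all genes were lower. The exporter ABCG2 had 6.50 and 5.02 FPKM, ABCC2 13.2 and 12.8 FPKM and radixin, RDX, 30.6 and 27.4 FPKM, while the scaffold SLC9A3R1 had 314 and 362 FPKM (log2 change 0.20, but -0.05 without the trend).

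Over the 12 junction lists together, 98 distinct genes were measured, with a median change of -0.04 against 0.01 over all genes. Of the 98, 41 were higher and 57 lower, against 52.0% and 48.0% of all genes. CLDN4 was the only one of the 98 past 1.5-fold in either direction, where 0.635% of all genes were. Values at least 25% higher belonged to 7 of the 98, against 6.12% of all genes, and values at least 20% lower to 0, against 2.30%. Without the trend 39 were higher and 59 lower, against 50.6% and 49.4% of all genes.

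**Figure D4:**
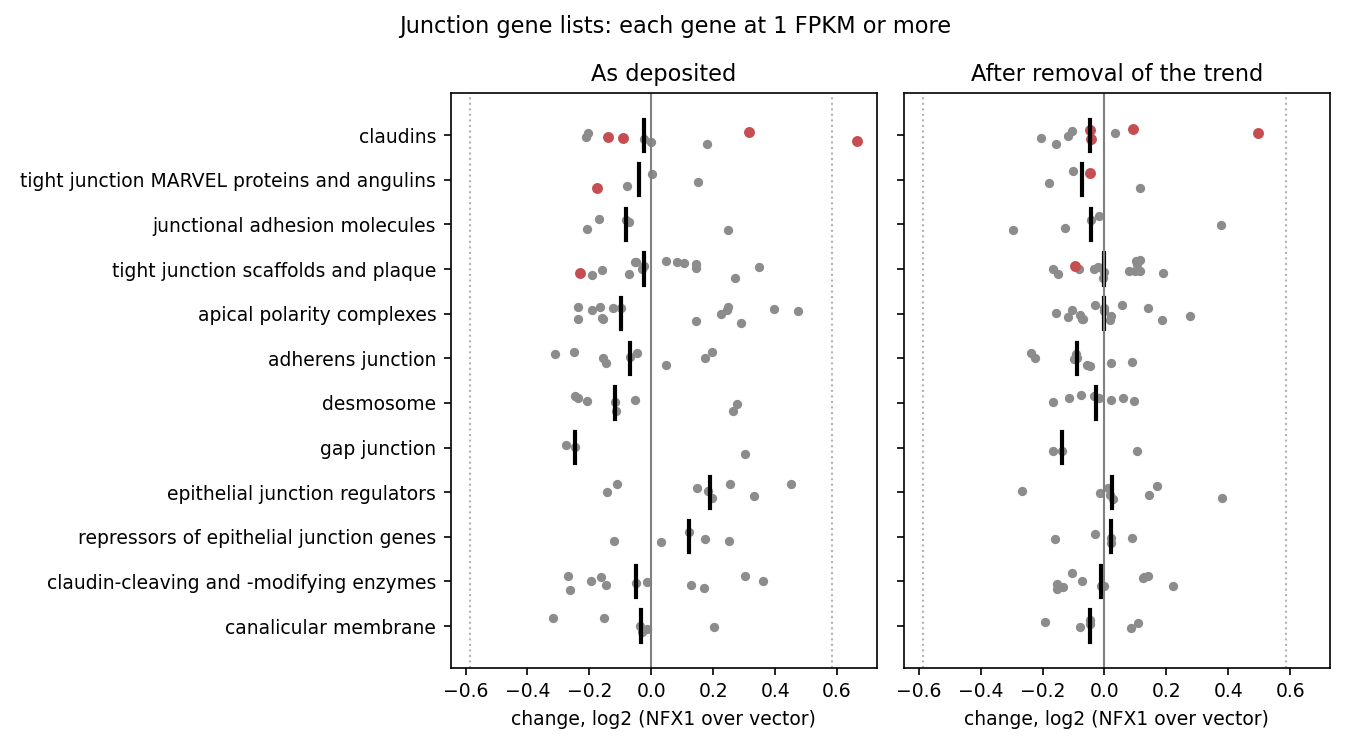
Change on the log2(FPKM + 1) scale, NFX1 over vector, of each gene with at least 1 FPKM in the 12 junction lists. The left panel has the deposited values and the right panel the values with the trend subtracted. Black bars are list medians, red points are members, and dotted lines mark 1.5-fold; CLDN4 at 0.67 is the only point past that line on the left, and no point is past it on the right.

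The authors' deposited table gave CLDN4 a log2 ratio of 0.74 (p = 0.00800, q = 0.999), the lowest p among the members in the authors' deposited table. For CLDN3 the log2 ratio in the authors' deposited table was 0.35 (p = 0.202). For TJP1 it was -0.27 (p = 0.298) in the authors' deposited table. CLDN2 and CLDN7 were left untested there, and no member was marked significant in the authors' deposited table. Since each group was 1 library, these p-values hold no measure of how cultures vary.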

How the data were processed

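RNA was sequenced from 2 cultures, 1 per group. The submitters' processing notes name hg19, Cufflinks 2.2.1 and TopHat2 2.1.0. Settings, annotation and strand are not given in the sources used here. Per the file headers the authors deposited FPKM for each library, together with q-values, p-values, a score (their test statistic) and the log2 ratio of the libraries.

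The table has 28658 rows; 492 with several symbols and 1651 with none were left out, and the row with the highest mean stood for a repeated symbol. The change of a gene is the difference of log2(FPKM + 1), NFX1 minus vector, for the 11182 genes at 1 FPKM or more in a library. No test was made, as groups had 1 library. The worth of 1 fragment in the NFX1 library was 0.870 times that in the vector library, the most common ratio among 4056 low rows. Fragments were estimated with the median length of GENCODE transcripts matched to RefSeq, by symbol, without coordinates. Depth was set on genes of 850 to 1100 bp, so intervals of longer transcripts may be too wide. The trend used cubic splines with 5 knots on genes within 2-fold. Steps were tested on simulated data. Members, lists and the rule for named genes (all members, all claudins at 1 FPKM or more, the 4 largest changes per list, the 2 highest per marker list) were chosen with earlier results of these data known. The 5 promoter patterns were chosen after the sequences had been seen. Examples outside the rule are ALB, TTR, FGB, KRT19, CLDN5, CLDN9, CDH5, KDR, ELP5, RIPPLY1, the claudins at 0 and the neighbours of CLDN3 and CLDN4. A few genes that the rule selects stay in the counts and medians and are not reported here. Software was scikit-learn 1.9.0, scipy 1.17.1, pandas 2.3.3, numpy 2.4.6 and matplotlib 3.10.9 on Python 3.11.15.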

Additional observations from a re-analysis of the deposited data

How the results depend on the processing

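No paired analysis was possible because each group had 1 library, and for the same reason no replicate could be left out. The direction of each of the 6 members at 1 FPKM or more was the same under all the alternatives run (pseudocounts of 0.1 and 5, other filters, 3 scalings, summed rows, row status, removal of the trend). For CLDN2, CLDN6 and CLDN7 it was the same under those that gave a value, which removal of the trend did not, nor row status for CLDN2 and CLDN7. The change of CLDN4 ranged from 0.48 to 0.73 and that of CLDN3 from 0.09 to 0.34. The count of 1 member past 1.5-fold became 0 with a pseudocount of 5, with scaling to equal FPKM totals and after removal of the trend, and 0 at a limit of 2-fold. Without a filter 7 members were lower. Of the junction list genes, 1 was past 1.5-fold; the count was 2 with a pseudocount of 0.1, 0 with a pseudocount of 5, with equal totals or after removal of the trend, and 7 at a limit of 25% higher or 20% lower. With FPKM of at least 5, 36 of them were lower instead of 57, as fewer genes were measured. Scaling to equal totals moved the median of all genes by -0.11 and left 35 of the junction list genes higher and 63 lower. Of the other comparisons of single genes and list medians, 25 moved and 180 did not. Depth limits CLDN2, CLDN6 and CLDN7.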
